A study of Homo sapiens with 8 samples.

Results

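The extended major histocompatibility complex (MHC) region was taken as chromosome 6 from 28500000 to 33500000 of hg19, and its members were all enriched islands of 6 deposited ChIP-seq lists that overlap it. There were 356 such islands among 58757 in all. They comprised 72 of 16919 H3K27me3 islands of HT, 81 of 13159 H3K27me3 islands of SUDHL6, 20 of 2523 EZH2 islands of HT, 11 of 1506 EZH2 islands of SUDHL6, 81 of 10914 H3K4me3 islands of HT and 91 of 13736 H3K4me3 islands of SUDHL6. The rule used positions only and no measured value. HT and SUDHL6 are established lines grown from diffuse large B cell lymphoma, a tumour of mature B cells, and neither was treated. SUDHL6 is known to carry an activating mutation of EZH2 and HT is known as EZH2 wild type, which the labels do not state. Each line and antibody had 1 library and no replicate, so no difference between HT and SUDHL6 could be tested and all are descriptions of these libraries. The 2 input samples were not used here. Sequencing depth is not given in the sources used here, nor is the treatment of reads that map to several near-identical gene copies, of which the MHC has many.

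EZH2 is a methyltransferase that acts within a Polycomb repressive complex and trimethylates lysine 27 of histone H3 (H3K27me3) on repressed chromatin. Trimethylated lysine 4 (H3K4me3) marks active and poised promoters. The MHC holds the class I genes, whose products show peptides from inside the cell to cytotoxic T cells, and the class II genes, whose products show peptides to helper T cells and are expressed by B cells. The class III genes between them include complement components and cytokines of the tumour necrosis factor family, and the whole region is gene-rich. Lymphomas of B cells are known to lose class I or class II products in some tumours.

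The region was split at 31500000 and at 32350000. The class I segment was 3 Mb long, the class III segment 0.85 Mb and the class II segment 1.15 Mb, and no island crossed a split or an end of the region. In the RefSeq gene table of GRCh38.p14, 46 of 48 listed MHC genes were found, and their order was used as orientation only. Among others, along the chromosome came HLA-F, HLA-G, HLA-E, HLA-C, HLA-B, MICA and MICB of class I, then LTA, TNF, LTB, C2, CFB, TNXB and NOTCH4 of class III. HLA-DRA, HLA-DRB1, HLA-DQA1 and HLA-DQB1 followed, then TAP2, PSMB8, TAP1 and PSMB9, which process and transport peptides, and HLA-DPA1, HLA-DPB1, RXRB, RING1 and DAXX. RING1 is itself a Polycomb protein. Gene positions on hg19 were not used here, so no island is assigned to a gene.

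H3K27me3 covered much less of the region in HT than in SUDHL6, and the gap was widest in the class III segment. HT islands covered 205 kb, or 4.10% of the region, and SUDHL6 islands covered 687 kb, or 13.7%. As a log2 ratio of HT over SUDHL6, here and below, this was -1.74. In the class I segment HT covered 149 kb and SUDHL6 363 kb, a log2 ratio of -1.29. In the class III segment HT covered 16.1 kb and SUDHL6 189 kb, a log2 ratio of -3.55. In the class II segment HT covered 40.5 kb and SUDHL6 135 kb, a log2 ratio of -1.74. Class III was thus the segment with the lowest H3K27me3 density in HT, at 18.9 kb per Mb, and with the highest in SUDHL6, at 222 kb per Mb. By number of islands the lines were close in class I, with 52 in each, and in class II, with 14 in HT and 15 in SUDHL6. The class III segment held 6 islands of HT and 14 of SUDHL6, and 7 of those 14 were 10 kb or wider.

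**Figure D1:**
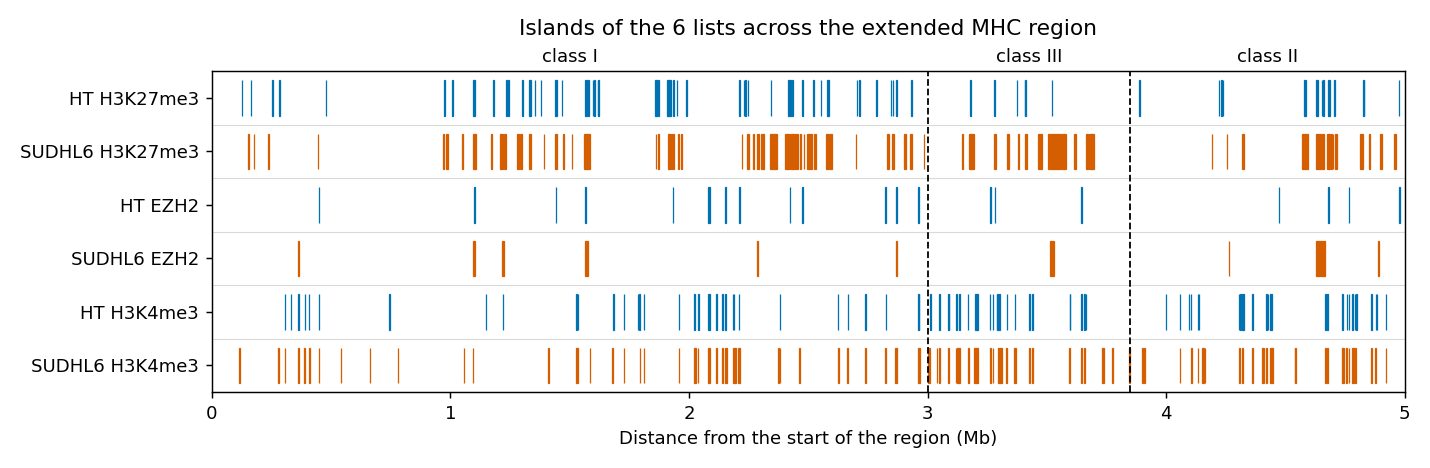
Islands of the 6 lists across the extended MHC region, against distance from its start in Mb; each list is a row, each island a bar, drawn no thinner than a hairline, and dashed lines mark the splits between the class I, class III and class II segments. HT and SUDHL6 H3K27me3 islands number 72 and 81, and the dense SUDHL6 blocks in class III face few HT islands.

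**Figure D2:**
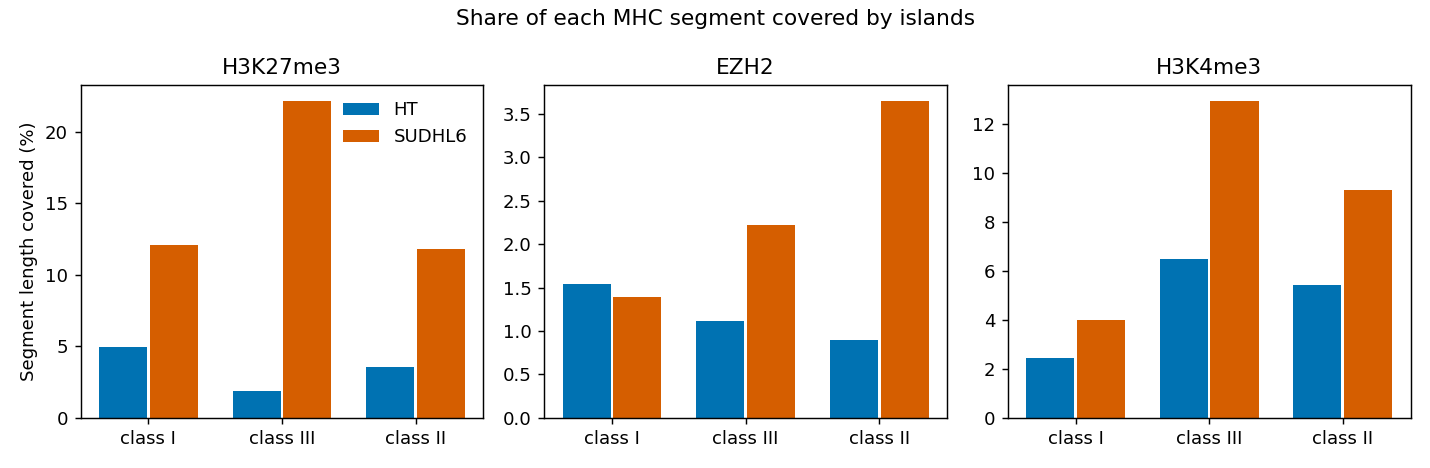
Share of each segment's length covered by islands, in percent, for each antibody, with HT left of SUDHL6 and 1 library per bar. In class III, H3K27me3 covers 1.89% in HT and 22.2% in SUDHL6, and EZH2 is the antibody with more cover in HT in class I.

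Over the whole region the lines differed in H3K27me3 more by width than by number. The median width in the region was 2400 bp for HT and 7200 bp for SUDHL6. The medians of the whole HT and SUDHL6 lists were 2550 bp and 3000 bp. On the rest of chromosome 6 the medians were 2250 bp in HT and 4800 bp in SUDHL6, so SUDHL6 islands were wider there too. In the region, HT widths ran from 750 to 10650 bp and SUDHL6 widths from 750 to 39300 bp. Islands of 10 kb or wider numbered 1 of 72 in HT (1.39%, exact Clopper-Pearson 95% interval 0.0352 to 7.50%) and 21 of 81 in SUDHL6 (25.9%, 16.8 to 36.9%), and intervals here and below cover counting error only. Over the whole lists such islands made up 2.19% of HT and 4.61% of SUDHL6, and over the rest of chromosome 6 they were 0.879% in HT and 17.6% in SUDHL6. The islands of 10 kb or wider held 10.7 kb of H3K27me3 in HT and 354 kb in SUDHL6, or 5.19% and 51.6% of the length of H3K27me3 in the region.

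**Figure D3:**
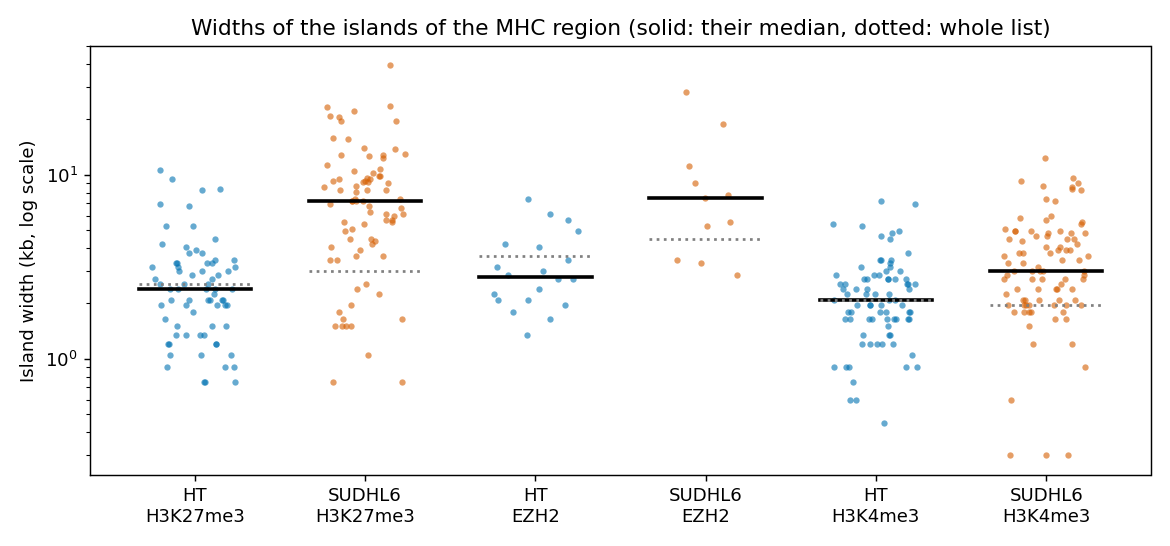
Width of each island of the MHC region in kb on a log axis, by list, with HT left of SUDHL6 for each antibody; points are islands, solid lines their median and dotted lines the median of the whole list. The H3K27me3 medians are 2400 bp in HT and 7200 bp in SUDHL6, and the EZH2 medians 2775 bp in HT and 7500 bp in SUDHL6.

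The widest H3K27me3 islands of HT lay in class I and class II, and SUDHL6 H3K27me3 met all 5 of the widest. The leading island spanned 30413401 to 30424050 (10.7 kb), and SUDHL6 H3K27me3 covered 91.5% of it. The island from 30916951 to 30926400 measured 9.45 kb and that from 30064801 to 30073200 measured 8.4 kb, with 84.1% and 83.9% under SUDHL6 H3K27me3. Of the 5 widest, the other two lay in class II, from 33127651 to 33135900 (8.25 kb) and from 33079501 to 33086400 (6.9 kb), and SUDHL6 H3K27me3 covered 100% of each. HT EZH2 lay over the islands at 30916951 and 30064801, covering 20.6% and 26.8%, and over none of the other three.

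The widest H3K27me3 islands of SUDHL6 were spread over all 3 segments, and HT H3K27me3 covered at most 37.9% of any named here. The widest lay in class III from 32006401 to 32045700 (39.3 kb), had width rank 3 in its whole list, and had 4.58% of its length under HT H3K27me3. In class II, islands spanned 33071101 to 33094650 (23.6 kb) and 33126751 to 33150000 (23.3 kb), with 29.3% and 35.5% under HT H3K27me3. In class I, the island from 30993301 to 31015500 (22.2 kb) had no HT H3K27me3, and that from 30903901 to 30924900 (21.0 kb) had 37.9%. Of the 21 SUDHL6 islands of 10 kb or wider, 11 met an HT island (52.4%, 29.8 to 74.3%), against 50.6% of islands of that width in the whole list and 65.0% on the rest of chromosome 6. Of the 60 narrower islands, 13 did (21.7%, 12.1 to 34.2%), against 26.7% in the whole list and 22.6% on the rest of chromosome 6. These shares from elsewhere all lay inside the intervals of the region.

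Some wide SUDHL6 H3K27me3 islands met no HT H3K27me3 at all. The 5 widest of these were the class I island at 30993301 and 4 islands of class III. The class III islands measured 20.6 kb at 31961101, 19.7 kb at 32176051, 13.95 kb at 32046451 and 12.9 kb at 32069251. The widest HT islands without SUDHL6 H3K27me3 were much narrower. They measured 5.25 kb at 31367401, 4.5 kb at 29733301, 4.05 kb at 30710701 and 3.75 kb at 29802451 in class I, and 3.9 kb at 33325951 in class II.

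Of all HT H3K27me3 islands of the region, 29 of 72 (40.3%, 28.9 to 52.5%) overlapped a SUDHL6 H3K27me3 island, against 21.2% of the whole HT list. Of the SUDHL6 islands, 24 of 81 (29.6%, 19.99 to 40.8%) overlapped an HT island, against 27.8% of the whole SUDHL6 list. On the rest of chromosome 6 such an overlap was found for 30.4% of HT islands and for 176 of 586 SUDHL6 islands. The HT share is read beside the length SUDHL6 covers there, since more cover leaves more to be met, and its part in the share was not tested. Joining overlapping islands of the lines gave 123 H3K27me3 sites, of which 43 were in HT alone, 57 in SUDHL6 alone and 23 in both. On the rest of chromosome 6 there were 1127, of which 554 were in HT alone, 409 in SUDHL6 alone and 164 in both. In the region, bases covered in HT alone came to 105 kb, in SUDHL6 alone to 587 kb and in both to 100 kb. By bases the share covered in both lines was 12.6% of that covered in either, close to the 13.4% on the rest of chromosome 6.

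Where both lines had H3K27me3, the HT part of the site was nearly always the shorter. HT covered more than SUDHL6 at 1 of the 23 sites (4.35%), against 47.7% of such sites over the autosomes and 20.7% on the rest of chromosome 6, and it covered less at the other 22. The median log2 ratio of length at these sites was -1.49 in the region, -0.82 on the rest of chromosome 6 and -0.02 over the autosomes. Class I held 15 of the sites, and class III and class II 4 each. The direction was that of the rest of the chromosome, with a larger value in the region, and the difference between these was not tested. Ranked by the narrower island, the leading pair joined the widest HT island, at 30413401, with a SUDHL6 island from 30414301 to 30426600 (12.3 kb). The second joined the HT island at 30916951 with the SUDHL6 island at 30903901.

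EZH2 islands were more numerous in HT and wider in SUDHL6. HT had 20 over 65.9 kb and SUDHL6 11 over 103 kb, a log2 ratio of -0.64 by length and of 0.86 by number, so the direction turned with the measure. EZH2 islands had a median width of 2775 bp in HT and of 7500 bp in SUDHL6, and none in HT but 3 in SUDHL6 (27.3%) reached 10 kb. Such islands made up 3.45% of the whole HT list and 11.8% of the SUDHL6 list, and 1.97% and 33.3% on the rest of chromosome 6. The rest of the chromosome had the same pattern, with 152 islands of HT and 60 of SUDHL6 and median widths of 3450 bp and 7125 bp. In class I, HT covered 46.1 kb with 13 islands and SUDHL6 41.9 kb with 6. In class III the lengths were 9.45 kb in 3 islands of HT and 18.9 kb in 1 island of SUDHL6. In class II they were 10.4 kb in 4 islands of HT and 42.0 kb in 4 islands of SUDHL6.

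The 4 widest HT EZH2 islands lay at H3K4me3 and not at H3K27me3. The widest, in class I from 31458301 to 31465650 (7.35 kb), had 42.9% of its length under HT H3K4me3. The next were 30651301 to 30657450 (6.15 kb) and 30581401 to 30587100 (5.7 kb) in class I and 31761001 to 31765950 (4.95 kb) in class III, with 46.3%, 81.6% and 54.5% under HT H3K4me3. None of these 4 had H3K27me3 or EZH2 in either line apart from HT EZH2 itself, and SUDHL6 H3K4me3 lay at all of them. Next came a class II island from 33474001 to 33478200 (4.2 kb), which had 32.1% under HT H3K27me3 and no H3K4me3 in either line. These 5 were also the widest HT EZH2 islands without SUDHL6 EZH2.

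The widest SUDHL6 EZH2 islands lay in H3K27me3. The widest, in class II from 33127351 to 33155400 (28.1 kb), had width rank 5 in its whole list, and SUDHL6 H3K27me3 covered 93.6% of it. The class III island from 32012101 to 32031000 (18.9 kb) had 100% under SUDHL6 H3K27me3. Those of class I from 30063901 to 30075000 (11.1 kb) and from 29595151 to 29604150 (9 kb) had 78.4% and 88.3%. The class II island from 33156001 to 33163800 (7.8 kb) had 69.2%. SUDHL6 EZH2 without HT EZH2 was widest at 33127351, 32012101 and 33156001, followed by class I islands from 29715451 to 29722950 (7.5 kb) and 30784651 to 30790200 (5.55 kb), of which SUDHL6 H3K27me3 covered 74.0% and 100%.

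EZH2 overlapped H3K27me3 of the same line at 11 of 20 HT islands (55%, 31.5 to 76.9%) and 7 of 11 SUDHL6 islands (63.6%, 30.8 to 89.1%). Over the whole lists these shares were 48.9% in HT and 65.5% in SUDHL6, inside both intervals. H3K4me3 of the same line was overlapped by 9 of 20 HT EZH2 islands (45%, 23.1 to 68.5%) and 3 of 11 SUDHL6 EZH2 islands (27.3%, 6.02 to 61.0%), against 33.8% and 16.5% over the whole lists. On the rest of chromosome 6 the H3K4me3 shares were 34.9% in HT and 33.3% in SUDHL6. By bases the lines stood further apart in the region. H3K27me3 covered 34.6% of the EZH2 length of the region in HT and 76.2% in SUDHL6, and H3K4me3 covered 33.3% in HT and 7.30% in SUDHL6. These base shares were taken inside the region only, so none over the lists stands beside them. H3K27me3 covered 205 kb of the region in HT and 687 kb in SUDHL6, and the part of that difference in the shares was not tested. The 2 widest SUDHL6 EZH2 islands, of 28.1 kb and 18.9 kb, held much of its EZH2 length of 103 kb. The 8 HT EZH2 islands with H3K4me3 and no H3K27me3 had a median width of 4050 bp, and the 10 with H3K27me3 and no H3K4me3 of 2475 bp. SUDHL6 EZH2 had the opposite order, with 4350 bp for 2 islands with H3K4me3 and 9450 bp for 6 islands with H3K27me3. The 8 and 10 HT islands were 40% and 50% of those of the region, against 26.6% and 41.8% of the whole HT list. The 2 and 6 SUDHL6 islands were 18.2% and 54.5%, against 10.8% and 59.9% of the whole SUDHL6 list.

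Seen from H3K27me3, EZH2 of the same line lay in 11 of 72 HT islands (15.3%, 7.88 to 25.7%) and 8 of 81 SUDHL6 islands (9.88%, 4.36 to 18.5%), against 7.77% and 9.45% over the whole lists. On the rest of chromosome 6 the shares were 11.7% and 6.48%. The shared bases were 22.8 kb in HT and 78.3 kb in SUDHL6, which made up 11.1% and 11.4% of the H3K27me3 length. Most H3K27me3 of the region therefore had no called EZH2 of its own line. In SUDHL6, 5 of the 21 islands of 10 kb or wider had EZH2 (23.8%, 8.22 to 47.2%), against 32.1% of islands of that width in the whole list. Of the 60 narrower ones 3 did (5%, 1.04 to 13.9%), against 8.36%, so both list shares lay inside the intervals of the region. The widest SUDHL6 H3K27me3 islands without EZH2 in that line lay at 33071101 in class II and at 30993301 and 30903901 in class I.

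EZH2 was present in both lines at 3 sites, all in class I. HT covered more at 0 of these, against 42.0% of such sites over the autosomes and 31.6% on the rest of chromosome 6. At 31366951 to 31371000 in HT and 31366801 to 31372050 in SUDHL6 the islands nearly coincided. At 29599501 to 29602350 in HT, the SUDHL6 island at 29595151 was wider, and H3K27me3 of both lines lay there. At 30065701 to 30067950 in HT the SUDHL6 island was that at 30063901, and H3K27me3 of both lines covered 100% of the HT EZH2 island. In HT 15% (3.21 to 37.9%) and in SUDHL6 27.3% (6.02 to 61.0%) of EZH2 islands of the region were at these sites, against 11.5% and 19.4% of the whole lists. On the rest of chromosome 6, 12.5% of HT and 31.7% of SUDHL6 EZH2 islands met EZH2 of the other line.

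H3K4me3 covered less of every segment in HT than in SUDHL6, and most islands were shared. The region held 81 islands over 191 kb in HT and 91 over 336 kb in SUDHL6, a log2 ratio of -0.82. In class I HT covered 73.4 kb and SUDHL6 120 kb, in class III 55.1 kb and 109.95 kb, and in class II 62.3 kb and 107 kb. The log2 ratios of these segments were -0.70, -1.0 and -0.78. Class III had the highest H3K4me3 density in both lines, with 27.1 islands per Mb in HT and 29.4 in SUDHL6, against 11 and 13.3 in class I. The median width was 2100 bp in HT and 3000 bp in SUDHL6, against 2100 bp and 1950 bp over the whole lists. On the rest of chromosome 6 it was 2100 bp in HT and 2250 bp in SUDHL6.

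A SUDHL6 H3K4me3 island was overlapped by 67 of 81 HT islands (82.7%, 72.7 to 90.2%), against 74.4% of the whole HT list. An HT island was overlapped by 63 of 91 SUDHL6 islands (69.2%, 58.7 to 78.5%), against 59.0% of the whole SUDHL6 list and 49.0% on the rest of chromosome 6. The joined sites numbered 104, of which 14 were in HT alone, 28 in SUDHL6 alone and 62 in both. On the rest of chromosome 6 there were 890, of which 120 were in HT alone, 395 in SUDHL6 alone and 375 in both. At 10 of the 62 shared sites of the region (16.1%) HT covered more than SUDHL6, and at 50 it covered less. HT covered more at 47.3% of such sites over the autosomes and at 30.7% on the rest of chromosome 6. The median log2 ratio at shared sites was -0.63 in the region, -0.32 on the rest of chromosome 6 and 0 over the autosomes.

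The widest H3K4me3 island of both lists was the same class II site, from 32935501 to 32942700 (7.2 kb) in HT and from 32933551 to 32945850 (12.3 kb) in SUDHL6. In HT the others of the 5 widest were 33235501 to 33242400 (6.9 kb) and 32819251 to 32824500 (5.25 kb) in class II, 31700551 to 31705950 (5.4 kb) in class III and 30180451 to 30185400 (4.95 kb) in class I, and SUDHL6 H3K4me3 lay at every site. In SUDHL6 they were 32651101 to 32660700 (9.6 kb) in class II and 31695301 to 31704600 (9.3 kb), 32232601 to 32241600 (9 kb) and 31801501 to 31810200 (8.7 kb) in class III. The SUDHL6 islands at 32651101 and 32232601 had no HT H3K4me3. They were among the 5 widest SUDHL6 islands without it, with 31363951 to 31372200 (8.25 kb) in class I, and 32903551 to 32910750 (7.2 kb) and 32407201 to 32412000 (4.8 kb) in class II. HT islands without SUDHL6 H3K4me3 were narrower, the 5 widest being 2550 bp at 30285601 and at 33297751, 2400 bp at 28831051 and at 32637001 and 2100 bp at 29719351.

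Sites where H3K27me3 of HT met H3K4me3 of SUDHL6 numbered 2, both in class I. The HT H3K27me3 island from 31367401 to 31372650 shared 4.8 kb with the SUDHL6 H3K4me3 island at 31363951 and had neither HT H3K4me3 nor SUDHL6 H3K27me3. EZH2 covered 68.6% of it in HT and 88.6% in SUDHL6. This is the EZH2 site called at nearly the same bounds in both lines, with H3K27me3 over most of it in HT and H3K4me3 over all of it in SUDHL6. The HT H3K27me3 island from 30710701 to 30714750 shared 2.1 kb with a SUDHL6 H3K4me3 island of 5.4 kb at 30707401. HT H3K4me3 also lay over 7.41% of it and HT EZH2 over 40.7%, and it was the only HT H3K27me3 island of the region that overlapped HT H3K4me3 (1.39%, against 2.05% of the whole list). The 2 islands made up 2.78% (0.338 to 9.68%) of the HT H3K27me3 islands, against 3.75% of the whole list and 6.03% on the rest of chromosome 6.

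In the other direction, 4 of 81 SUDHL6 H3K27me3 islands met HT H3K4me3 (4.94%, 1.36 to 12.2%). This compares with 2.55% of the whole list and 3.07% on the rest of chromosome 6. In class I, the island from 29708251 to 29721000 (12.8 kb) shared 1.65 kb with an HT H3K4me3 island at 29719351, and SUDHL6 EZH2 covered 43.5% of it. In class III, the island from 32163001 to 32172900 (9.9 kb) shared 1.5 kb with an HT H3K4me3 island at 32162851. SUDHL6 had no H3K4me3 in these islands, so the mark differed between the lines there. In class II, the islands from 32817751 to 32826900 (9.15 kb) and 33172501 to 33177900 (5.4 kb) shared 5.25 kb and 2.4 kb with HT H3K4me3. SUDHL6 H3K4me3 also covered 50.8% and 55.6% of these islands, so H3K4me3 lay in both lines and H3K27me3 was called in SUDHL6 as well. Both marks of SUDHL6 overlapped at 5 of its 81 H3K27me3 islands (6.17%, 2.03 to 13.8%), against 2.46% of the whole list. On the rest of chromosome 6 they overlapped at 41 of 586 islands (6.997%), so the region was close to its chromosome.

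In windows of 100 kb the region had 36 windows with H3K27me3 in either line. With 3 kb added to both lines, HT was lower than SUDHL6 by 2-fold or more in 17 of them (47.2%), against 17.1% of such windows over the autosomes, and higher in 1 (2.78%), against 29.7%. On the rest of chromosome 6 the shares were 24.1% lower and 20.9% higher. The window with most SUDHL6 H3K27me3 began at 32000001, with 1.8 kb in HT and 72.2 kb in SUDHL6, and next came 30900001, with 14.7 kb and 61.2 kb. The window where HT was higher began at 30100001, with 5.55 kb in HT and 0 kb in SUDHL6. H3K4me3 was lower in HT by 2-fold or more in 7 of 44 windows (15.9%), against 8.53% over the autosomes and 16.1% on the rest of chromosome 6, and higher in 0, against 2.52%. EZH2 was higher in HT in 8 of 23 windows (34.8%), against 41.4%, and lower in 7 (30.4%), against 22.7%.

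**Figure D4:**
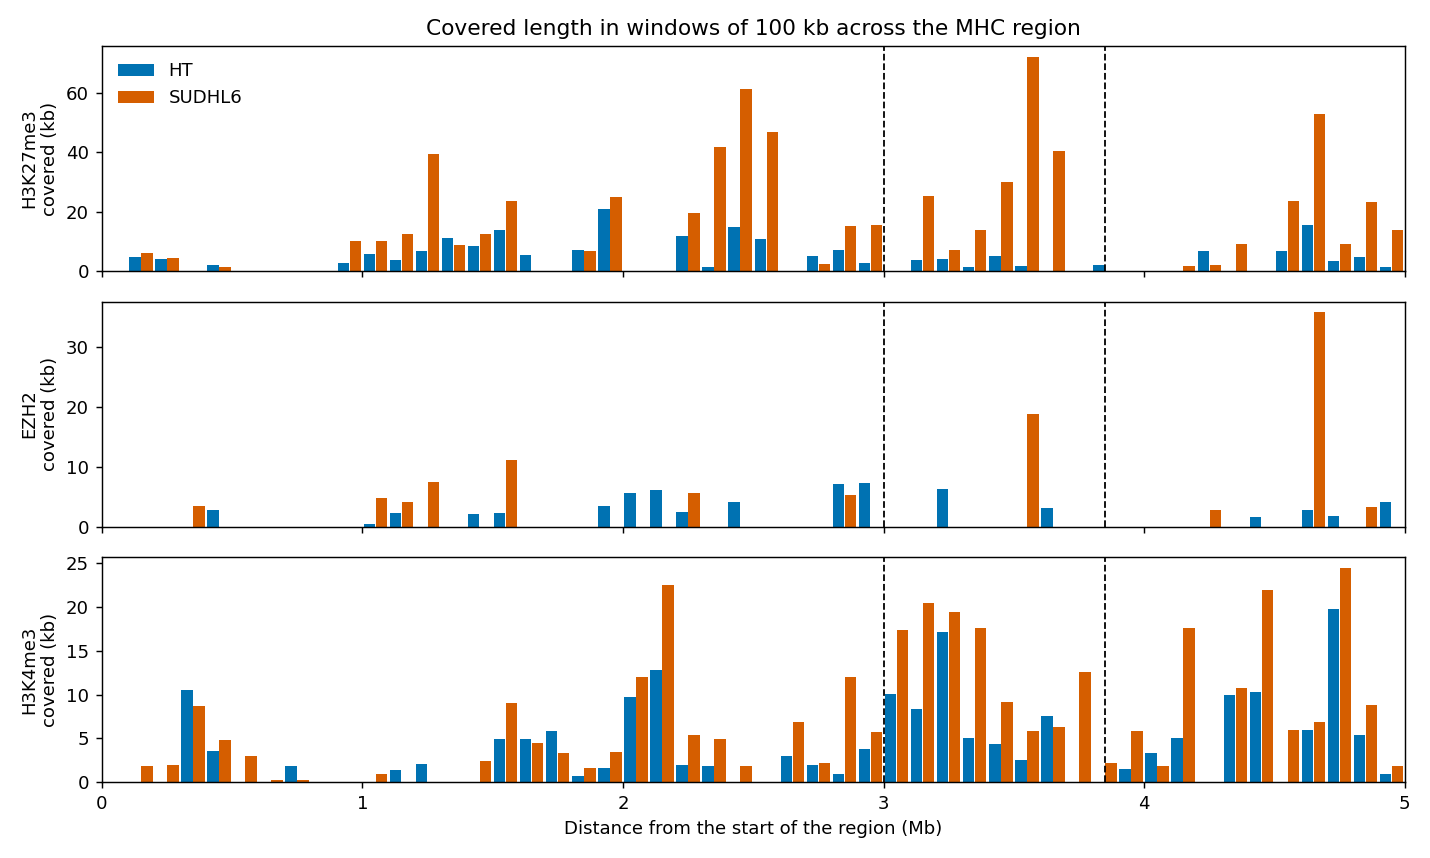
Length covered by islands in kb in consecutive windows of 100 kb, against distance from the start of the MHC region in Mb, for each antibody, with the HT bar left of the SUDHL6 bar and dashed lines at the segment splits. The tallest H3K27me3 bars are SUDHL6 windows of 72.2 kb and 61.2 kb, and EZH2 of SUDHL6 stands out in a class II window with 2.7 kb in HT and 35.9 kb in SUDHL6.

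The longest stretch of SUDHL6 H3K27me3 in the region lay in class III, where 4 islands less than 5 kb apart ran from 32006401 to 32082150 over 75.8 kb. H3K27me3 of SUDHL6 made up 95.2% of the stretch and its EZH2 24.95%, within the single EZH2 island at 32012101. HT H3K27me3 covered 2.38%, as an island of 1.8 kb from 32020351 to 32022150, and HT EZH2 and H3K4me3 of both lines covered none of it. Further along class III, SUDHL6 H3K27me3 islands at 32163001 and 32176051 formed a stretch of 32.7 kb with no HT H3K27me3 and no EZH2 in either line, and HT H3K4me3 over 4.59% of it. Among the islands between these stretches, H3K4me3 of both lines lay at 32095201 to 32096850 in HT and 32093251 to 32099100 in SUDHL6.

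Next in length to the SUDHL6 H3K27me3 stretch of 75.8 kb was one in class I from 30903901 to 30959100 (55.2 kb). HT H3K27me3 covered 23.1% of that stretch and SUDHL6 EZH2 none. A further stretch of Polycomb signal in SUDHL6 lay in class II from 33126751 to 33161400, with 2 H3K27me3 islands over 34.7 kb. In SUDHL6, H3K27me3 made up 94.8% and EZH2 96.5% of its length, the highest EZH2 cover among the 6 longest SUDHL6 H3K27me3 stretches of the region. HT H3K27me3 covered 31.6%, as separate islands of 8.25 kb, 0.750 kb and 1.95 kb, and HT EZH2 covered none. H3K4me3 of both lines began just beyond it, at 33166651 in HT and at 33166501 in SUDHL6. The nearest HT EZH2 island spanned 33179251 to 33181950, and there SUDHL6 had H3K27me3 over 83.3% and no EZH2.

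**Figure D5:**
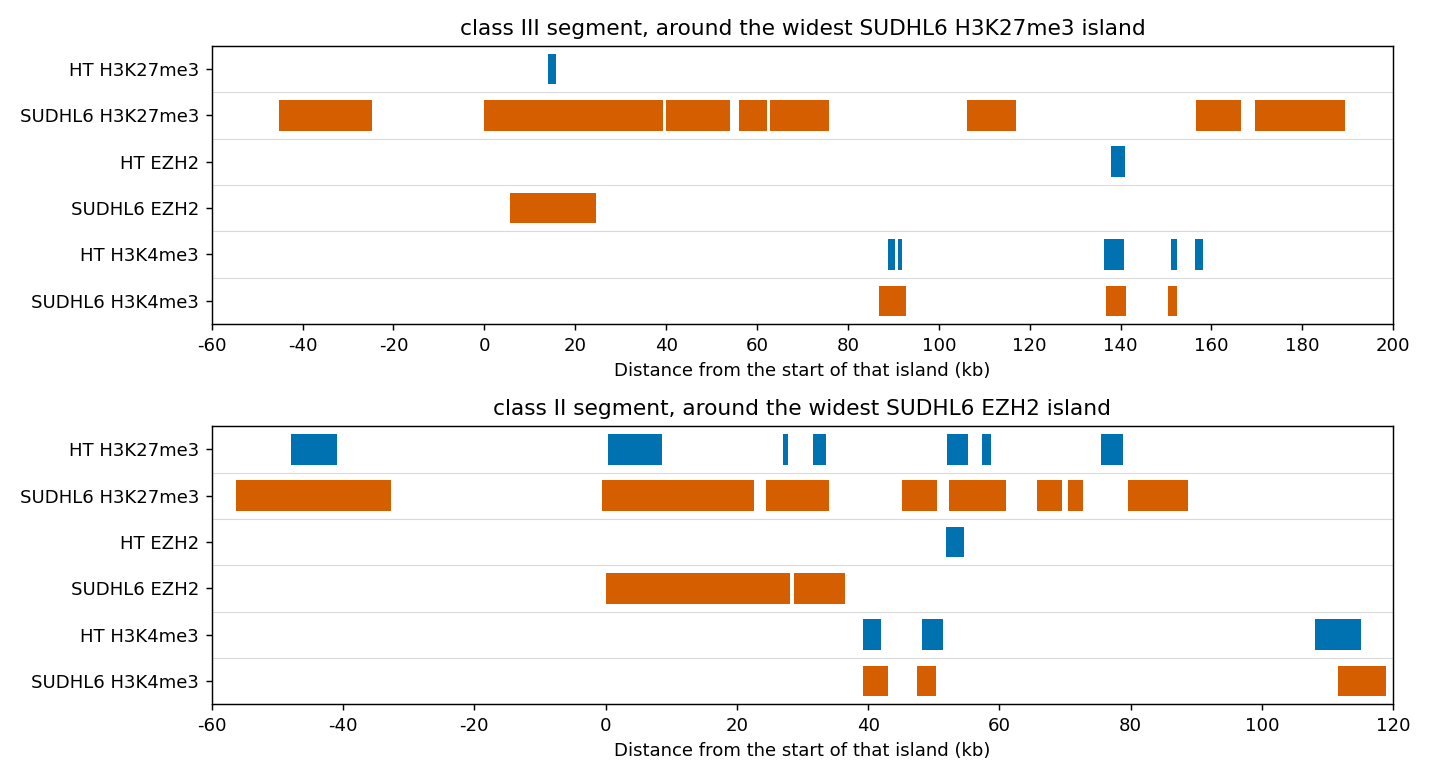
Islands of the 6 lists around the widest SUDHL6 H3K27me3 island of class III (top) and the widest SUDHL6 EZH2 island of class II (bottom), against distance in kb from the start of that island; each row is a list and each bar an island to scale. The SUDHL6 H3K27me3 stretches of 75.8 kb and 34.7 kb hold HT H3K27me3 over 2.38% and 31.6% of their length.

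EZH2 of each line was also set against the marks of the other line. SUDHL6 H3K27me3 was overlapped by 7 of 20 HT EZH2 islands (35%, 15.4 to 59.2%), against 20.1% of the whole HT list, and HT H3K27me3 by 6 of 11 SUDHL6 EZH2 islands (54.5%, 23.4 to 83.3%), against 44.4% of the whole SUDHL6 list. SUDHL6 H3K4me3 was overlapped by 10 of 20 HT EZH2 islands, against 39.8%, and HT H3K4me3 by 2 of 11 SUDHL6 EZH2 islands, against 15.3%. On the rest of chromosome 6 the H3K27me3 shares were 17.8% of HT EZH2 and 53.3% of SUDHL6 EZH2 islands. The H3K4me3 shares there were 48.7% and 20%. Counted from H3K27me3, SUDHL6 EZH2 lay in 8 of 72 HT islands (11.1%, against 4.40% of the whole list) and HT EZH2 in 7 of 81 SUDHL6 islands (8.64%, against 4.42%). On the rest of chromosome 6 these were 6.28% and 4.95%. Of the 7 HT EZH2 islands at SUDHL6 H3K27me3, all had HT H3K27me3 as well, and 2 had SUDHL6 EZH2.

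Some of these positions had EZH2 in HT alone within H3K27me3 of both lines. In class I, the HT EZH2 island from 30431401 to 30434850 had 60.9% of its length under HT H3K27me3 and 100% under SUDHL6 H3K27me3. HT EZH2 at 29942701 (2.1 kb) and 30922501 (1.95 kb) in class I and at 31782601 (1.35 kb) in class III had 100% under H3K27me3 of each line. The H3K27me3 islands that held EZH2 of their own line were mostly narrower in HT than in SUDHL6. All H3K27me3 islands of the region differed in the same direction, with medians of 2400 bp in HT and 7200 bp in SUDHL6. The 11 of HT ran from 1.35 kb at 33476101 to 9.45 kb at 30916951. The 8 of SUDHL6 ran from 7.2 kb at 30064651 to 39.3 kb at 32006401, so only the 2 widest of HT reached the narrowest of SUDHL6. EZH2 with neither mark in its own line lay at 32971951 in HT and at 33388501 and 32762701 in SUDHL6, all in class II. These made up 5% of HT EZH2 islands of the region (0.127 to 24.9%) and 18.2% of SUDHL6 ones (2.28 to 51.8%). Over the whole lists the shares were 24.4% and 23.6%.

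Against 549 windows of 5 Mb over the autosomes, the region ranked high for every list. By H3K27me3 length it was number 74 in HT and number 7 in SUDHL6, by EZH2 length number 22 in HT and number 10 in SUDHL6, and by H3K4me3 length number 6 in HT and number 3 in SUDHL6. The log2 ratio of H3K27me3 length, with 3 kb added, was lower in 18 of 304 windows with at least 50 kb. For H3K4me3 81 of 381 windows were lower and for EZH2 22 of 98. The neighbouring windows of chromosome 6 had the same direction for H3K27me3 and H3K4me3, but not both for EZH2. From 23.5 to 28.5 Mb the log2 ratio was -0.64 for H3K27me3, -1.04 for H3K4me3 and 1.78 for EZH2. From 33.5 to 38.5 Mb it was -1.52 for H3K27me3, -1.47 for H3K4me3 and -2.15 for EZH2. Over the rest of the chromosome the ratios were -0.77 for H3K27me3, -0.02 for EZH2 and -0.94 for H3K4me3, against 0.08, 0.32 and -0.37 over all autosomes. All windows from 3.5 to 58.5 Mb had negative ratios for both marks, and those from 98.5 to 168.5 Mb with H3K27me3 in both lines had positive H3K27me3 ratios. In those later windows H3K4me3 ratios were negative, except 0.14 from 108.5 to 113.5 Mb, so the marks differed in direction there. Copy number was not measured, and its part in these ratios was not tested. The H3K27me3 ratio of the region, -1.74, lay below its H3K4me3 ratio, -0.82. The same order held from 3.5 to 8.5 Mb (-1.52 and -0.77) and from 13.5 to 18.5 Mb (-1.23 and -1.08). It also held from 33.5 to 38.5 Mb (-1.52 and -1.47) and from 38.5 to 43.5 Mb (-1.46 and -1.05). In the other windows from 3.5 to 58.5 Mb the H3K27me3 ratio lay above the H3K4me3 ratio, as from 23.5 to 28.5 Mb (-0.64 and -1.04). The H3K27me3 ratio was also the higher over the rest of the chromosome (-0.77 and -0.94), so the order of the region was not general.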

How the data were processed

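ChIP-seq of H3K27me3, EZH2 and H3K4me3 in HT and SUDHL6 was deposited as 1 list of islands per library. The submitters' processing notes name SICER and hg19, and its settings in the deposited file names are window 150 bp, gap 450 bp and FDR 1E-7. Aligner, read filters and control are not given in the sources used here. Each island's score is the authors' deposited value of unstated meaning and served only to rank or describe islands within 1 list. The H3K27me3 file names carry another normalization tag than the rest, so antibodies were not compared by level. Positions are counted from 1. Islands were assigned to a segment by their middle, lengths were clipped at the splits, and an overlap of 1 bp was enough. Intervals of shares are exact Clopper-Pearson at 95%. Windows of 100 kb had 3 kb added to both lines. Regions were named by width within each list, by presence in 1 line, and by overlap of marks within or between lines. The longest stretches, the positions with EZH2 and H3K27me3 of both lines and the 5 Mb windows were chosen after their values were seen. The region, rules and gene lists were chosen with earlier results of these data known. On simulated islands the overlap code classed 100% as made. Gene positions on hg19 were not used, so the planned assignment of promoters was not run. Tools were Python 3.11.15 with numpy 2.4.6, scipy 1.17.1 and, for figures, matplotlib 3.10.9.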

Additional observations from a re-analysis of the deposited data

Results flagged for a closer look

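The EZH2 covered length differed in direction between segments. The log2 ratio, HT over SUDHL6, was 0.14 in the class I segment, against -1.0 in class III and -2.02 in class II. With 1 library per line this difference was not tested, and the class III value rests on 3 islands of HT and 1 of SUDHL6.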

How the results depend on the processing

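The 11 main results were recomputed under 8 alternatives, which gave 77 values. Of these, 64 stayed within 1.5 times the reported length ratio or count, or inside the 95% interval of the reported share, 12 moved further and 1 changed sign. Wide intervals kept some large moves inside, such as the share of HT EZH2 over H3K27me3 at 37.5% with the same number of islands in both lines. By number of islands in place of covered length, the log2 ratio HT over SUDHL6 was -0.17 for H3K27me3 and -0.17 for H3K4me3, and for EZH2 it turned to 0.86. The EZH2 ratio of covered length was -1.82 when only the top 50% of islands by score were kept, -1.47 with the same number of islands in both lines and -1.26 with the same covered length. That first setting left 5 HT EZH2 islands in the region, of which 20% overlapped HT H3K27me3. It also put the shares of H3K4me3 islands met in the other line at 97.6% in HT and 50.6% in SUDHL6, and left 2 SUDHL6 H3K27me3 islands over HT H3K4me3. Requiring 50% of the island to be overlapped, the SUDHL6 shares met in HT were 9.88% for H3K27me3 and 46.2% for H3K4me3, and 1 SUDHL6 H3K27me3 island lay over HT H3K4me3. Joining islands within 5 kb and leaving out islands under 1 kb moved none of the 11. Keeping islands wholly inside the region could not move any, since no island crossed an end, so its values among the 64 were fixed in advance. The 1 kb limit could not change EZH2 lengths either, as the narrowest EZH2 islands measured 1350 bp in HT and 2850 bp in SUDHL6. No paired analysis was possible because each line and antibody had 1 library. Depth was not given, so a missing island does not show absence of a mark.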

Other observations

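The islands of the region had high authors' scores per kb within the SUDHL6 lists. The median island of the region lay at percentile 52.7 of its list in HT and 79.6 in SUDHL6 for H3K27me3, at 58.4 in HT and 93.2 in SUDHL6 for EZH2, and at 54.1 in HT and 75.9 in SUDHL6 for H3K4me3. For H3K4me3 of SUDHL6 the median score per kb was 45.5 in the region, 29.3 on the rest of chromosome 6 and 31.7 over the whole list. In HT the values were 35.4, 33.8 and 34.0. For EZH2 of SUDHL6 they were 19.3, 15.5 and 13.9. For H3K27me3 of SUDHL6 they were 24, 23.1 and 20.2, so there the region was close to the rest of chromosome 6.

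The longest stretches without islands lay at like positions in the lines for H3K27me3 and EZH2. For H3K4me3 they did not, but this rests on a few very narrow SUDHL6 islands. The longest without H3K27me3 ran over 493 kb from 28980901 to 29473500 in HT and over 522 kb from 28945651 to 29467500 in SUDHL6, both in class I. The longest without EZH2 ran over 825 kb from 32147401 to 32971950 in HT and over 732 kb from 32031001 to 32762700 in SUDHL6, across the split of class III and class II. The longest without H3K4me3 ran over 402 kb from 29245951 to 29647800 in HT and over 313 kb from 29596351 to 29909400 in SUDHL6, which overlapped only at their ends. SUDHL6 H3K4me3 within that HT stretch was limited to islands of 300 bp at 29282401, 600 bp at 29556901 and 300 bp at 29596051. H3K27me3 islands lay a median of 41325 bp from the nearest H3K4me3 island in HT and 20100 bp in SUDHL6, against 106350 bp and 72300 bp over the autosomes. Within 5 kb of H3K4me3 lay 4.17% of HT and 19.8% of SUDHL6 H3K27me3 islands of the region, against 5.02% and 7.84% over the autosomes.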
